A study of Mus musculus with 6 samples.

Results

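The genes described are 42 chemokine ligands and receptors, 28 ligands and 14 receptors, taken by a list of names from the 32371 mouse genes of a table of RNA-Seq read counts. The table holds 3 libraries from mice injected with AAV2-GFP (GFP) and 3 libraries from mice injected with AAV2-Ezh2-Y726D (Ezh2-Y726D). All 42 genes were found in the table, and 33 of them had enough counts to be tested. The question put to them was how their mRNA levels differed between the groups after an injury of the optic nerve.

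All mice were C57BL/6J, and the study's methods give adults of 6 to 10 weeks and both sexes as its usual animals. AAV2 was injected into the vitreous, the optic nerve was crushed (ONC) 2 weeks later, and retinal cells were collected 3 days after the ONC, so both groups carried a virus and an injured nerve. Ezh2 is the methyltransferase of Polycomb repressive complex 2, and Ezh2-Y726D is a form of it without catalytic activity. The samples are labelled as retinal ganglion cells (RGCs), which were enriched by a live-cell sort for CD90.2. CD90.2 is the product of Thy1 and is carried by RGCs, and in mice also by T cells. The sources used here do not give the promoter of the vectors, whether the retinas of several mice were combined, or whether the replicates came from separate animals, so P values measure the spread between these libraries, which may be technical.

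Chemokines are small secreted or membrane-anchored proteins that draw leukocytes to a tissue. They bind receptors in the cell membrane that signal through Gi proteins, PI3K and Rac, while atypical receptors take ligands up without this signal. Many of the genes of inflammatory chemokines lie side by side in the genome and respond to NF-kappaB and interferons. After injury of the optic nerve, chemokines can come from glia, neurons and blood-borne cells, and their receptors are found mostly on leukocytes and microglia.

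To show the regulatory sequence in front of the members on which the results turn, the 250 bases before the start site are given below from RefSeq's annotation of GRCm38.p6, 5′ to 3′ on the strand of the gene. Ccl8 and Cxcr4 had the largest falls of a tested ligand and a tested receptor, Cxcl14 had the highest level per length, and Cxcl10 is the standard example of an interferon-induced chemokine. Capitals mark matches on either strand to the kappaB consensus, to the interferon-stimulated response element (ISRE), in which GAAA is repeated after any 2 bases, to the interferon-gamma-activated site TTCNNNGAA (GAS) or to the AP-1 motif TGANTCA.
Ccl8, chr11:82114935-82115184, plus strand: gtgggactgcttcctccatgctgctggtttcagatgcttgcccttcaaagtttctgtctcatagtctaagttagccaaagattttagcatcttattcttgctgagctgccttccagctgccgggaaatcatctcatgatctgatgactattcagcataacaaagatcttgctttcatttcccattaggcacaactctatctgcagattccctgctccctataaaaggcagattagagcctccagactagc
Cxcr4, chr1:128592300-128592549, minus strand: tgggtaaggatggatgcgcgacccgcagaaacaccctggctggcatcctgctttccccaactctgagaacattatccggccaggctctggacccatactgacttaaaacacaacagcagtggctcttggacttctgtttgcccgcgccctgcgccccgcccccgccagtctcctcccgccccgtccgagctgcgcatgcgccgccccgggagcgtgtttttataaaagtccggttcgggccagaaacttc
Cxcl10, chr5:92348890-92349139, minus strand: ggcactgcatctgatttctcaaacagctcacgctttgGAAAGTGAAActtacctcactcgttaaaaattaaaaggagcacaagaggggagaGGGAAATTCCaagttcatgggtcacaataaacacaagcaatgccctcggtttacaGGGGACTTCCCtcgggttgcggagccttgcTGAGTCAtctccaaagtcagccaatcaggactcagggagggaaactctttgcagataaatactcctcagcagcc
Cxcl14, chr13:56296552-56296801, minus strand: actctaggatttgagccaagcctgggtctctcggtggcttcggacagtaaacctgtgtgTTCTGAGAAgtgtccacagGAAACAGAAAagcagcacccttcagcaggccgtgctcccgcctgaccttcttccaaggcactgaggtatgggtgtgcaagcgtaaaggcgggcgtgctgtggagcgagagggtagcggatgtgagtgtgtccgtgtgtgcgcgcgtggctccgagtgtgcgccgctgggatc
Cxcl10 held an ISRE, kappaB matches at 3 positions of which a pair overlap, and an AP-1 match, and Cxcl14 held a GAS and an ISRE match. None of these letters was found before Ccl8 or Cxcr4. Windows of 300 bases, from 250 before to 50 after the start site, were found for 31 of the 42 members, which have 35 windows. The kappaB consensus occurred in 25.7% of the member windows and in 8.46% of all 32851 windows in the table. The ISRE occurred in 8.57% of the member windows and in 3.44% of all, the GAS in 8.57% and 8.3%, and AP-1 in 14.3% and 7.81%. The kappaB matches belonged to Ackr2, Ccl9, Ccr1, Ccr3, Ccr6, Ccrl2, Cxcl1, Cxcl2 and Cxcl10. Of these 9 genes, 3 had too few counts to be tested (Ackr2, Ccr3 and Cxcl2). Of those tested, 4 were lower after Ezh2-Y726D (Ccl9, Ccr1, Ccrl2 and Cxcl10) and 2 did not pass (Ccr6 and Cxcl1). Among all genes tested 13.6% were lower, and among the members tested 54.5%. Matches of letters are a description and do not show that a factor binds.

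The libraries held 9333244 to 23782520 counts, of which a single rRNA gene took 50.9% and 52.2% in GFP replicates 2 and 3 and 2.55% to 16.1% in the other 4. Without it, 4460732 to 22024582 counts remained, and 1 count was worth 0.0339 to 0.166 CPM, the normalised read count that edgeR scales by TMM library size. The members took 0.0614% to 0.0695% of these remaining counts. Ezh2 lay at 22.7 to 26.4 CPM in GFP and at 65.2 to 65.6 CPM in Ezh2-Y726D, and reads of the vector cannot be told from those of the gene. Libraries within a group differed by more than counting noise, so none was a copy of another. Per kilobase of exon, the RGC genes Thy1, Sncg and Nefl were at 35.2, 34.5 and 42.8 CPM in the GFP libraries, while Glul of Müller glia was at 895 CPM, so the libraries labelled as RGCs also held RNA of other retinal cells.

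Most chemokine receptors were lower after Ezh2-Y726D overexpression, while the ligands split, with more falls than rises. Of the 33 members tested, 18 (54.5%) were lower at an adjusted P under 0.05 in edgeR's quasi-likelihood test, against 13.6% of all 18138 genes tested. Only 3 members (9.09%), all of them ligands, were higher, against 13.9% of all genes. Differentially expressed genes (DEGs), which also need a fold change over 1.5, numbered 9 lower members (27.3%, against 5.5% of all genes) and 1 higher member, against 2.52% of all genes. Together these 10 DEGs stand against a share of 8.02% of all genes. The groups did not overlap in 22 members (66.7%), against 38.6% of all genes. The median log2 fold change was -0.44 over the members and 0.00 over all genes. It was -0.62 over the 11 receptors tested, of which 8 were lower and none higher, although Cxcr6 and Ccrl2 changed sign with library totals. It was -0.17 over the 22 ligands tested, of which 10 were lower and 3 higher, although the lower Cxcl9, Cxcl10 and Cxcl16 changed sign with library totals. Without Ezh2-Y726D replicate 1, 6 members in place of 10 were DEGs. With library totals as the scaling, which count the rRNA gene, most calls were lost: the median of all genes moved to 0.49 and that of the members to 0.03, and Ccl8 alone of the 21 remained called. The called members that changed sign then lay at 0.01 to 0.18, below the median of all genes. Relative to all genes the members then lay 0.46 lower, against 0.44 lower with TMM, and RLE size factors and both scalings without the rRNA gene kept all 21 calls.

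**Figure D1:**
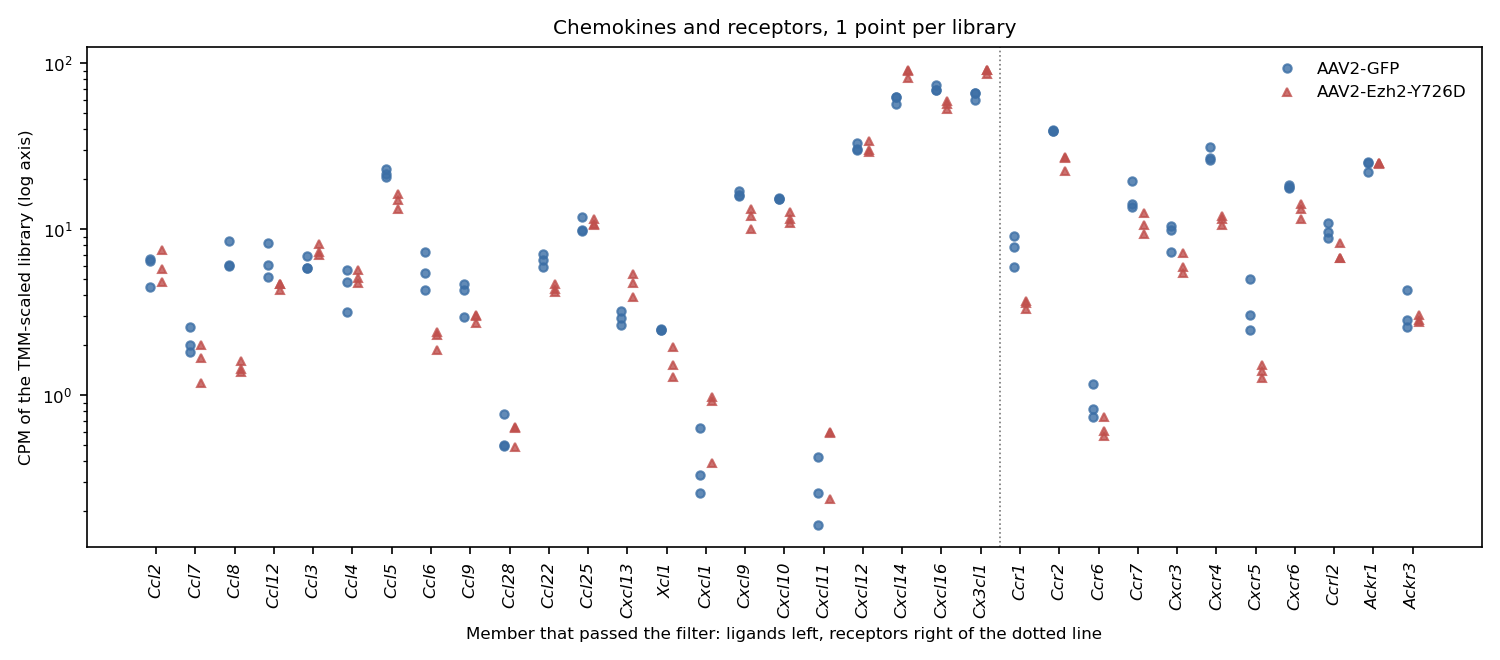
Level of each of the 33 members tested, in CPM of the TMM-scaled library on a log axis, with 1 point per library, GFP as circles and Ezh2-Y726D as triangles. The Ezh2-Y726D libraries lie below all GFP libraries in Ccl8 (1.37 to 1.59 against 6.00 to 8.46) and Cxcr4 and above them in Cxcl14 and Cx3cl1, and since CPM is not divided by length, heights of different genes are not compared.

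Levels of different genes were compared only as CPM per kilobase of exon. On that scale Cxcl14 led the members in both groups, at 33.1 in GFP and 47.6 in Ezh2-Y726D. Cxcl16 (23.3 and 18.6), Ccl5 (22.6 and 15.5), Cx3cl1 (16.3 and 22.7), Cxcr4 (15.6 and 6.26), Ccl8 (13.4 and 2.87) and Ccl12 (12.1 and 8.43) followed in the order of the GFP libraries. In Ezh2-Y726D, Cx3cl1 lay above Cxcl16, and Ccl3 (9.75) and Ccl4 (7.84) lay above Cxcr4 and Ccl8. Ackr1 was listed at 17.2 and 17.7, but 25.7% of its exonic bases are shared with Cadm3, a neuronal gene on the same strand, so its level is uncertain. Among the other receptors in the GFP libraries, Cxcr4 lay above Cxcr6 (9.33), Ccr7 (7.95), Ccr2 (5.80) and Cxcr3 (5.31) per kilobase. In the Ezh2-Y726D libraries Cxcr4 (6.26) lay beside Cxcr6 (6.71) and Ccr7 (5.48).

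The largest change of any tested member was the fall of Ccl8, a monocyte attractant that acts through CC receptors. Ccl8 (chromosome 11, 82115185 to 82116799) had 6.00, 6.06 and 8.46 CPM in GFP and 1.43, 1.37 and 1.59 CPM in Ezh2-Y726D. Its lowest GFP library thus lay far above its highest Ezh2-Y726D library, and the level was 4.39-fold lower (log2 fold change -2.13, standard error 0.18, adjusted P = 2.52e-10 by edgeR). Ccl12, the mouse ligand MCP-5 of Ccr2, was at 6.07, 8.26 and 5.14 CPM in GFP and at 4.29, 4.66 and 4.64 CPM in Ezh2-Y726D. The groups did not overlap and it was called lower (log2 fold change -0.50, standard error 0.14, adjusted P = 0.00924), but without GFP replicate 2 the adjusted P was 0.0633. Ccl2, the main attractant of monocytes through Ccr2, was at 6.46, 6.58 and 4.48 CPM in GFP and 7.44, 4.80 and 5.73 CPM in Ezh2-Y726D. Its groups overlapped, with a log2 fold change of -0.02 and a 95% interval from -0.33 to 0.29. Ccl7, another Ccr2 ligand, was at 2.56, 1.81 and 1.99 CPM in GFP and 1.99, 1.18 and 1.66 CPM in Ezh2-Y726D and did not pass (log2 fold change -0.48, adjusted P = 0.137).

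Among the ligands of Ccr1 and related receptors, Ccl6, Ccl5 and Ccl9 were lower and Ccl3 and Ccl4 did not pass the test. Ccl6, a mouse chemokine of macrophages, was at 4.32, 5.42 and 7.30 CPM in GFP and at 2.29, 1.86 and 2.41 CPM in Ezh2-Y726D. All Ezh2-Y726D libraries lay below all GFP libraries, a 2.32-fold fall (log2 fold change -1.21, standard error 0.19, adjusted P = 9.59e-06 by edgeR). Ccl5, known as RANTES and made by activated T cells among others, was at 20.7, 21.4 and 22.9 CPM in GFP and at 13.2, 16.2 and 15.1 CPM in Ezh2-Y726D. It was 1.44-fold lower (log2 fold change -0.53, standard error 0.083), under the fold threshold of a DEG. Ccl9, at 4.32, 2.97 and 4.64 CPM in GFP and 2.71, 2.99 and 3.05 CPM in Ezh2-Y726D, was called lower although GFP replicate 2 lay inside the range of the other group. Its adjusted P was 0.0367 by edgeR and ran up to 0.368 when single libraries were left out, with calls lost without GFP replicates 1 and 3 and without each Ezh2-Y726D library. Ccl3 (MIP-1α) was at 5.82, 6.84 and 5.80 CPM in GFP and at 8.08, 7.01 and 7.32 CPM in Ezh2-Y726D. Its Ezh2-Y726D libraries all lay above its GFP libraries, with a log2 fold change of 0.31 and an adjusted P of 0.061 by edgeR, which became 0.0434 without GFP replicate 2. Ccl4 (MIP-1β) lay between 3.15 and 5.67 CPM in GFP and between 4.75 and 5.67 CPM in Ezh2-Y726D, and the groups overlapped.

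The ligands of Cxcr3, which are induced by interferon-gamma and draw T cells, were lower where they could be measured well, but with library totals the log2 fold changes turned to 0.03 for Cxcl9 and 0.10 for Cxcl10. Cxcl9 was at 16.0, 17.0 and 15.8 CPM in GFP and at 9.997, 12.1 and 13.2 CPM in Ezh2-Y726D (log2 fold change -0.46, standard error 0.098). Cxcl10 was at 15.2, 15.2 and 15.4 CPM in GFP and at 10.9, 12.6 and 11.5 CPM in Ezh2-Y726D (log2 fold change -0.39, standard error 0.089). In both genes the groups did not overlap. Cxcl11 had 1 to 16 counts per library, is annotated as a polymorphic pseudogene in this mouse genome, and shares 41.7% of its exonic bases with Gm2673 on the opposite strand. Whether counting used the strand is not given in the sources used here.

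The constitutive and the membrane-anchored ligands moved in both directions. Cxcl14, a chemokine made by many resting tissues, was at 62.8, 62.0 and 56.7 CPM in GFP and at 89.2, 90.8 and 80.7 CPM in Ezh2-Y726D. Each Ezh2-Y726D library lay above every GFP library, and the rise was 1.42-fold (log2 fold change 0.50, standard error 0.054, adjusted P = 1.88e-08 by edgeR). Cx3cl1, the membrane-anchored fractalkine of neurons that binds Cx3cr1 on microglia, was at 66.3, 66.2 and 60.2 CPM in GFP and at 90.9, 91.2 and 85.5 CPM in Ezh2-Y726D. It rose 1.37-fold (log2 fold change 0.46, standard error 0.050, adjusted P = 2.44e-08), also without overlap. Beside these rises, all 6 markers of amacrine cells in a list for that type were higher, 3 of them as DEGs. Of all genes tested, 13.9% were higher and 2.52% were higher DEGs. The summed level of the amacrine markers was 931 to 1006 CPM in GFP and 1451 to 1500 CPM in Ezh2-Y726D. The part of this shift in the rises was not tested. Cxcl16, the other membrane-anchored chemokine and the ligand of Cxcr6, fell from 69.0, 73.5 and 68.8 CPM to 52.5, 59.0 and 56.8 CPM (log2 fold change -0.33, standard error 0.053, but 0.18 with library totals). Its exons share 18.3% of their bases with Zmynd15 on the opposite strand. Cxcl12, the ligand of Cxcr4 and Ackr3, was at 30.4, 29.8 and 32.8 CPM in GFP and at 34.1, 29.0 and 30.1 CPM in Ezh2-Y726D. Its groups overlapped and its 95% interval on the log2 scale ran from -0.12 to 0.16.

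Of the lymphoid chemokines, Cxcl13 rose and Ccl22 and Xcl1 fell. Cxcl13, which draws B cells through Cxcr5, was at 2.91, 3.23 and 2.65 CPM in GFP and at 3.91, 4.71 and 5.39 CPM in Ezh2-Y726D. It was the only higher DEG of the members (log2 fold change 0.67, standard error 0.17, adjusted P = 0.00327 by edgeR), but without GFP replicate 1 its adjusted P was 0.0553, and without Ezh2-Y726D replicate 3 its log2 fold change was 0.54, under the fold threshold. Ccl22, a dendritic cell and macrophage ligand of Ccr4, was at 5.89, 7.09 and 6.47 CPM in GFP and at 4.17, 4.36 and 4.68 CPM in Ezh2-Y726D, without overlap (log2 fold change -0.51, adjusted P = 0.00526). Xcl1, lymphotactin of T and NK cells, was at 2.46, 2.45 and 2.49 CPM in GFP and at 1.28, 1.96 and 1.52 CPM in Ezh2-Y726D. The groups did not overlap and Xcl1 was a DEG (log2 fold change -0.65, adjusted P = 0.0291), but its call was lost without GFP replicate 1 or 2 and without Ezh2-Y726D replicate 1 or 3, with adjusted P values up to 0.154. Its exons share 18.7% of their bases with Gm20743 on the opposite strand. Ccl25, a ligand of Ccr9, lay at 9.79 to 11.7 CPM in GFP and at 10.6 to 11.5 CPM in Ezh2-Y726D and did not pass (log2 fold change 0.09).

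All 4 CXC receptors that could be tested were lower, with 3 of them DEGs, and only Cxcr6 changed sign with library totals (to 0.01). Of all genes tested, 13.6% were lower and 5.5% were lower DEGs. Cxcr4 (chromosome 1, 128588199 to 128592293), the receptor of Cxcl12, had 26.2, 27.0 and 31.4 CPM in GFP and 11.5, 12.01 and 10.5 CPM in Ezh2-Y726D. Every GFP library held over 2 times the level of any Ezh2-Y726D library, with a 2.44-fold fall (log2 fold change -1.28, standard error 0.082) whose adjusted P of 1.07e-12 by edgeR was the lowest of the members. Cxcr5, the receptor of Cxcl13 on B cells and follicular T cells, fell from 3.02, 2.45 and 4.98 CPM to 1.39, 1.27 and 1.52 CPM (log2 fold change -1.20, standard error 0.23, adjusted P = 0.000142). Cxcr3, found on activated T and NK cells, was at 10.4, 9.80 and 7.30 CPM in GFP and at 5.45, 5.93 and 7.15 CPM in Ezh2-Y726D (log2 fold change -0.64, standard error 0.13, adjusted P = 0.000247). Its lowest GFP library lay just above its highest Ezh2-Y726D library, and it fell under the fold threshold of a DEG without GFP replicate 1 (-0.48) and without Ezh2-Y726D replicate 1 (-0.55), still lower at an adjusted P under 0.05. Cxcr6, the receptor of Cxcl16, was at 18.5, 17.7 and 17.9 CPM in GFP and at 11.5, 14.1 and 13.3 CPM in Ezh2-Y726D, without overlap (log2 fold change -0.49, standard error 0.087).

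Of the 4 CC receptors tested, 3 were lower DEGs, against 5.5% of all genes tested. Ccr2, which marks inflammatory monocytes and some T cells, was at 39.1, 38.8 and 39.6 CPM in GFP and at 22.4, 27.2 and 26.8 CPM in Ezh2-Y726D (log2 fold change -0.62, standard error 0.069, adjusted P = 3.82e-08 by edgeR). Ccr1, a receptor of Ccl3 and Ccl5 on monocytes, fell from 5.93, 9.03 and 7.79 CPM to 3.31, 3.58 and 3.69 CPM (log2 fold change -0.99, standard error 0.15, adjusted P = 1.06e-05). Ccr7, the lymph node homing receptor, was at 19.4, 14.2 and 13.6 CPM in GFP and at 9.40, 12.5 and 10.6 CPM in Ezh2-Y726D (log2 fold change -0.66, standard error 0.11, adjusted P = 3.52e-05). In these 3 genes the groups did not overlap, with the smallest gap in Ccr7, where GFP replicate 1 was the highest library. Left out singly, GFP replicate 1 took Ccr7 to -0.38 and Ezh2-Y726D replicate 1 took Ccr7 to -0.58 and Ccr2 to -0.54, under the fold threshold of a DEG but still lower at an adjusted P under 0.05. Ccr6, the receptor of Ccl20, had 5 to 21 counts per library and did not pass (log2 fold change -0.42, 95% interval from -1.11 to 0.28).

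Of the 3 atypical receptors tested, 1 was lower, against 13.6% of all genes tested. Ccrl2, which binds chemerin without signalling, was at 9.65, 10.8 and 8.79 CPM in GFP and at 8.19, 6.71 and 6.68 CPM in Ezh2-Y726D and was lower (log2 fold change -0.44, standard error 0.12, adjusted P = 0.00462 by edgeR, but 0.06 on the log2 scale with library totals). Ackr3, which takes up Cxcl12, was at 2.84, 2.58 and 4.31 CPM in GFP and at 2.74, 3.04 and 2.81 CPM in Ezh2-Y726D (95% interval from -0.48 to 0.29). Ackr1, which binds many chemokines on endothelium and red cells, was at 22.2, 25.3 and 25.0 CPM in GFP and at 25.0, 24.9 and 24.8 CPM in Ezh2-Y726D (95% interval from -0.06 to 0.23). Both overlapped between the groups.

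**Figure D2:**
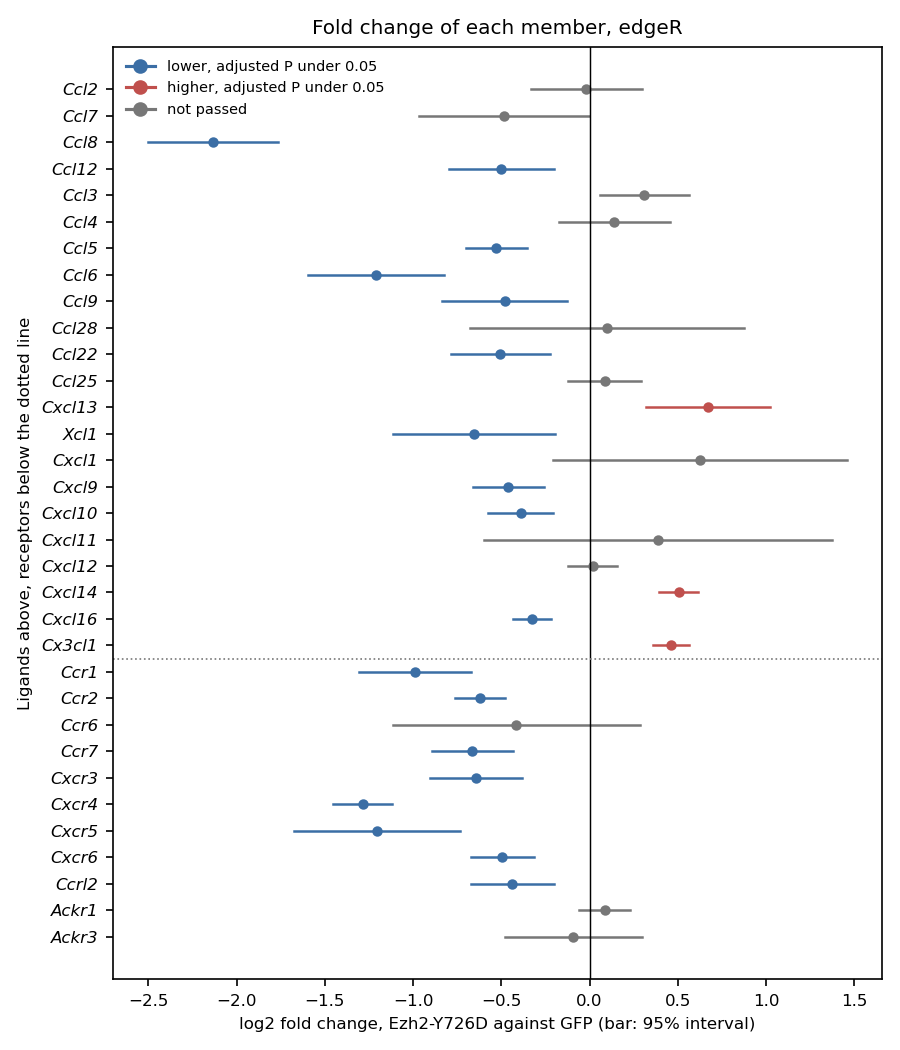
Log2 fold change of Ezh2-Y726D against GFP for the 33 members tested, with bars for the 95% interval from edgeR and colours for the call with TMM scaling, ligands above and receptors below the dotted line. 8 of 11 receptors were called lower, of which Cxcr6 and Ccrl2 turned with library totals, and 3 ligands were called higher.

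The remaining members had few counts, and with the count filter they were either not tested or did not pass. The neutrophil attractants were close to the limit of counting, with Cxcl1 at 18, 2 and 2 counts in GFP and 26, 8 and 27 in Ezh2-Y726D, and it did not pass the test (log2 fold change 0.63, 95% interval from -0.21 to 1.46). Cxcl2 had 6, 3 and 1 counts in GFP and 4, 1 and 3 in Ezh2-Y726D, and Cxcl5 had 10, 1 and 5 counts and 2, 4 and 1 counts. Cxcr2, the receptor of neutrophils for these ligands, had 0 to 2 counts per library. The neutrophil markers S100a8, S100a9, Ly6g, Mpo and Retnlg were likewise at no more than 3 counts in any library, while Csf3r, also found on monocytes, was lower (log2 fold change -0.68). Of the eosinophil and mucosal ligands, Ccl28 was tested at 3 to 19 counts per library (log2 fold change 0.10, 95% interval from -0.68 to 0.88), Ccl11 had 4 to 13 counts and Ccl24 had 0 or 1. Ccr3, the eosinophil receptor, had 0 to 4 counts, and the lymphoid ligands Ccl17 and Ccl19 had 1 to 10 and 0 to 2. Ackr2, a scavenger of inflammatory CC chemokines, had 0, 1 and 0 counts in GFP and 9, 0 and 11 in Ezh2-Y726D. Ccl24, Ccl19 and Cxcr2 were at or under 3 counts in all 6 libraries, and 3 counts are the upper limit that a count of 0 allows. Of the tested members, Ccl28, Cxcl1, Cxcl11 and Ccr6 had under 10 counts in at least 1 library, and none of them was called.

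Some members that lie side by side in the genome had different values, and others had similar ones. In the cluster of 81.2 kb on chromosome 11 (82035571 to 82116799), the order is Ccl2, Ccl7, Ccl11, Ccl12 and Ccl8, and the log2 fold changes were -0.02, -0.48, not tested, -0.50 and -2.13. The count of Ccl8 per count of Ccl2, a ratio within a library that no scaling can change, was 0.929, 0.922 and 1.89 in GFP and 0.192, 0.286 and 0.278 in Ezh2-Y726D. In the cluster of 138.9 kb on the same chromosome (83525778 to 83664683), Ccl5, Ccl9 and Ccl6 were lower, while Ccl3 and Ccl4 at its end did not pass. Counts of Ccl6 per count of Ccl3 were 0.741, 0.792 and 1.26 in GFP and 0.284, 0.266 and 0.329 in Ezh2-Y726D. On chromosome 8 (94745590 to 94812036), Ccl22 was lower and its neighbour Cx3cl1 was higher, and the ratio of Ccl22 to Cx3cl1 was 0.101 ± 0.011 in GFP and 0.0495 ± 0.0046 in Ezh2-Y726D (SD, n = 3). On chromosome 5 (92321347 to 92365485), Cxcl9 and Cxcl10 were both lower with TMM scaling, with values that turned with library totals. Their own ratio was 1.06 ± 0.049 in GFP and 1.01 ± 0.13 in Ezh2-Y726D and overlapped. On chromosome 9 (123806475 to 124113557), Cxcr6, Ccr1 and Ccr2 were lower, although Cxcr6 changed sign with library totals, and Ccr3 between Ccr1 and Ccr2 was at 0 to 4 counts. The neighbours for these ratios were picked after their values had been seen, and the ratios are a description.

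**Figure D3:**
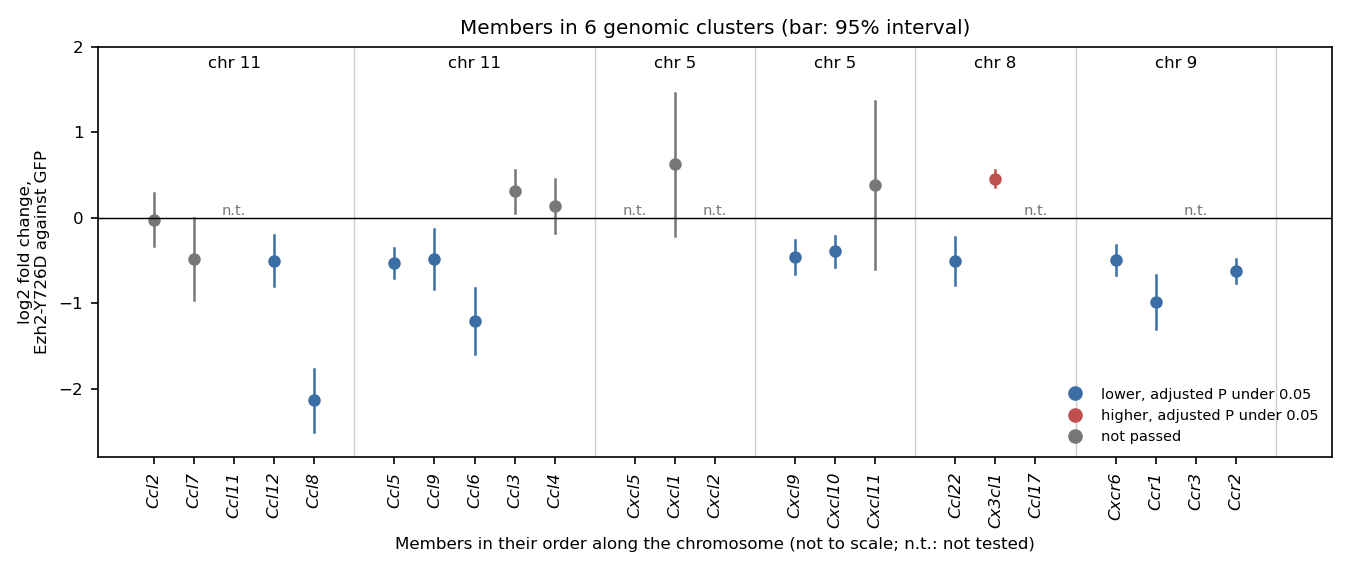
Log2 fold change of Ezh2-Y726D against GFP with TMM scaling for members that lie in 6 genomic clusters, in their order along the chromosome and not to scale, with bars for the 95% interval. In the first cluster the value goes from -0.02 at Ccl2 to -2.13 at Ccl8, and on chromosome 8 Ccl22 (-0.51) stands beside Cx3cl1 (0.46).

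Ligands were also set against their receptors as counts per count within a library, over 17 pairs in which both genes were tested. The Ezh2-Y726D libraries lay above the GFP libraries in 9 pairs, below in 1 and overlapped in 7. Among single genes 38.6% of all and 66.7% of the members tested did not overlap, which is a different measure from that of a ratio. The pairs share genes, with Ccr1 and Ccr2 in 4 each, so they are not independent and no test was made. The ratio of Cx3cl1 to its receptor Cx3cr1 was 1.09, 0.861 and 0.840 in GFP and 1.87, 1.73 and 1.61 in Ezh2-Y726D. Cx3cl1 rose while Cx3cr1, which is no member, was at 60.8, 76.9 and 71.7 CPM in GFP and at 48.6, 52.6 and 53.0 CPM in Ezh2-Y726D (log2 fold change -0.40, standard error 0.065, adjusted P = 1.83e-05 by edgeR). The ratio of Cxcl12 to Cxcr4 was 1.16, 1.11 and 1.05 in GFP and 2.97, 2.41 and 2.87 in Ezh2-Y726D, while that of Cxcl12 to Ackr3 overlapped, at 9.96 ± 2.1 and 10.9 ± 1.5 (SD, n = 3). Counts of Ccl3 per count of Ccr1 were 0.828 ± 0.13 in GFP and 2.13 ± 0.27 in Ezh2-Y726D (SD, n = 3). For Cxcl13 and Cxcr5 the ratios were 0.938 ± 0.39 and 3.35 ± 0.47 (SD, n = 3). Ccl8, for which Ccr8 is also known as a receptor in mice, was the exception, at 0.153, 0.156 and 0.213 counts per count of Ccr2 in GFP and 0.0636, 0.0504 and 0.0594 in Ezh2-Y726D. Cxcl9 and Cxcl10 kept overlapping ratios to Cxcr3, at 1.81 ± 0.32 and 1.91 ± 0.11 for Cxcl9 and at 1.71 ± 0.36 and 1.91 ± 0.27 for Cxcl10 (SD, n = 3).

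**Figure D4:**
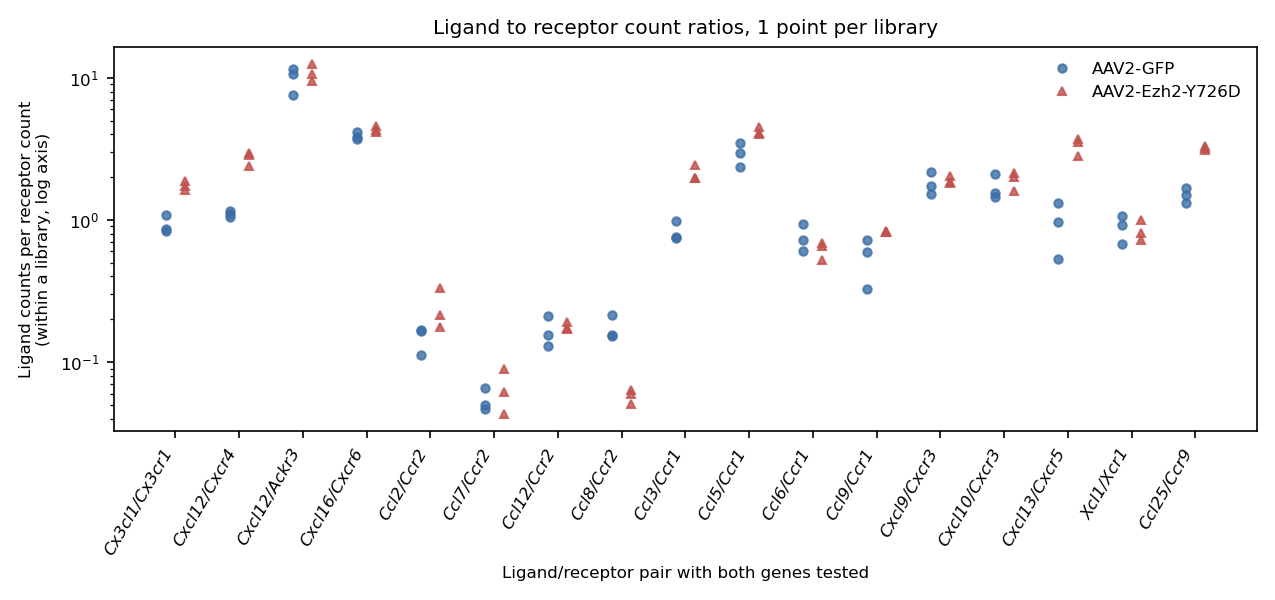
Counts of a ligand per count of its receptor within each library, on a log axis, with 1 point per library, GFP as circles and Ezh2-Y726D as triangles. For Cxcl12 and Cxcr4 the GFP libraries lie at 1.05 to 1.16 and the Ezh2-Y726D libraries at 2.41 to 2.97, and for Ccl8 and Ccr2 the order is the other way round.

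Of the genes that mark leukocytes, those of T cells and of macrophages and monocytes were mostly lower, as were most receptors, while those of microglia and dendritic cells were split. All 9 T cell markers tested were lower, 8 of them as DEGs (median log2 fold change -0.76), and their summed level was 143 to 148 CPM in GFP and 82.2 to 91.1 CPM in Ezh2-Y726D. Of the 7 macrophage and monocyte markers tested, 6 were lower DEGs (median -1.58), with a summed level of 556 to 620 CPM in GFP and 136 to 165 CPM in Ezh2-Y726D. Most of that sum was Lyz2, without which it was 84.3 to 95.96 CPM in GFP and 32.6 to 38.4 CPM in Ezh2-Y726D. The 5 NK cell markers included 3 lower, at 25.4 to 31.7 and 16.5 to 19.6 CPM in sum, and 2 of 4 B cell markers tested were lower, at 4.31 to 5.93 and 2.22 to 3.58 CPM. Of the 8 homeostatic microglia markers 3 were lower and 2 higher, at 405 to 456 and 320 to 377 CPM in sum, and of the 5 dendritic cell markers 1 was lower and 1 higher, at 47.1 to 50.3 and 39.5 to 41.96 CPM. Summed over the 14 members, the receptors were at 158, 159 and 162 CPM in GFP and at 102, 112 and 109 CPM in Ezh2-Y726D. The 28 ligands summed to 345, 356 and 338 CPM in GFP and to 358, 365 and 349 CPM in Ezh2-Y726D, and overlapped. Much of that sum was Cxcl16, Cx3cl1 and Cxcl14, so it does not show how most ligands moved. Their means were 70.5, 64.2 and 60.5 CPM in GFP and 56.1, 89.2 and 86.9 CPM in Ezh2-Y726D. The 8 RGC markers, of which none was lower and 2 were higher, summed to 418 to 430 and 413 to 449 CPM. Of other lists, against 13.6% of all genes lower and 13.9% higher, 4 of 5 pericyte, 2 of 5 endothelial, 1 of 4 astrocyte and 1 of 6 Müller glia markers were lower, as were 5 of 5 cone and 5 of 6 bipolar cell markers, while 2 Müller glia markers and 1 bipolar cell marker were higher. The part of these differences in the levels of the members was not tested, and in bulk libraries fewer cells of a type and less RNA per cell cannot be told apart.

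**Figure D5:**
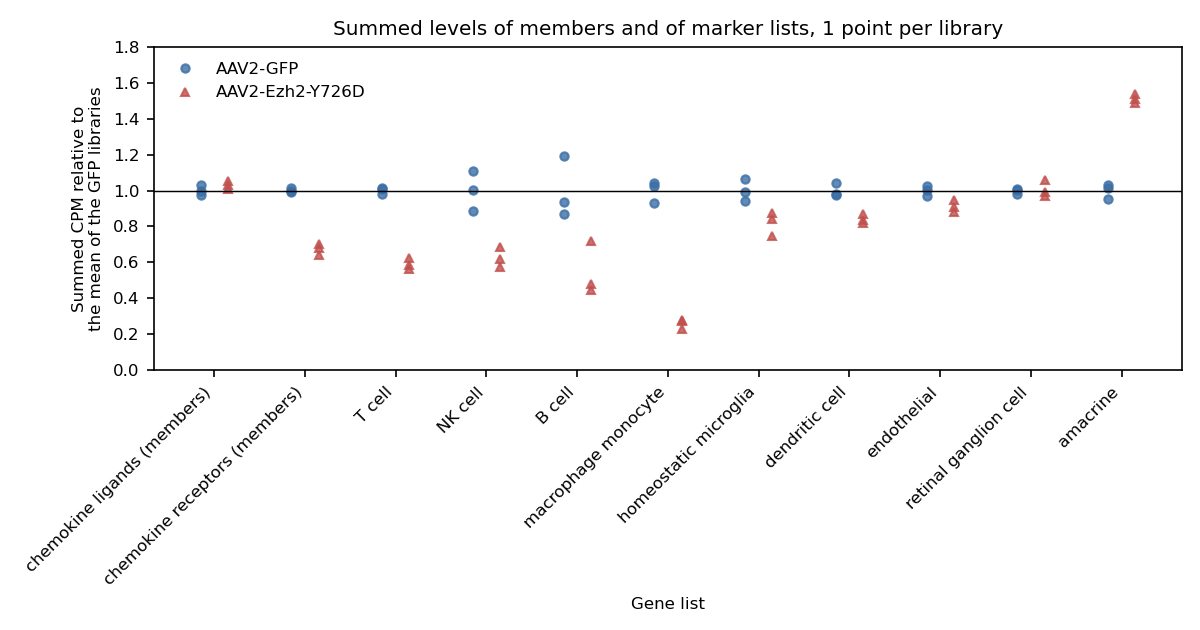
Summed CPM of the 28 ligands, the 14 receptors and 9 lists of marker genes in each library, divided by the mean of the GFP libraries, GFP as circles and Ezh2-Y726D as triangles. The receptors lie below the GFP libraries after Ezh2-Y726D (102 to 112 CPM against 158 to 162 CPM). The T cell, NK cell, B cell, macrophage, microglia, dendritic cell and endothelial lists also lie below them. The ligands and RGC markers overlap with the GFP libraries, and amacrine markers lie above. Much of the ligand sum is Cxcl16, Cx3cl1 and Cxcl14, and most of the macrophage and endothelial sums is Lyz2 and Kdr.

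The genes through which these receptors signal were lower more often than higher. Of 34 tested genes for G protein subunits, kinases, arrestins and exchange factors, 23 were lower, 15 of them as DEGs, and 5 were higher with no DEG (median log2 fold change -0.26), while of all genes tested 13.6% were lower, 5.5% were lower DEGs and 13.9% were higher. Those with the lowest adjusted P were Vav1 (-0.95, standard error 0.065), a Rac exchange factor of leukocytes, Dock2 (-0.78, standard error 0.061), which drives leukocyte migration, and Pik3cd (-0.73, standard error 0.057), a leukocyte PI3K. The 5 higher genes were Gnao1 (0.19), Gng2 (0.16), Arrb1 (0.20), Grk3 (0.23) and Prkcb (0.28), named after their values had been seen. Of the 14 genes of the NF-kappaB pathway, 10 were lower and none higher, and none was a DEG (median -0.23), against the same 13.6% and 13.9% of all genes. Those with the lowest adjusted P were the subunit genes Nfkb2 (-0.49) and Relb (-0.47) and the inhibitor gene Nfkbia (-0.39). Of 8 tested genes of the wider chemokine family, 6 receptor genes were lower and the ligand gene Ccl27a was higher (0.28). The call of Ccl27a was lost with DESeq2, after thinning to the shallowest library, and without GFP replicate 3 or Ezh2-Y726D replicate 2, and thinning left 3 lower genes. The lower genes included Ccr9 (-1.09), the receptor of Ccl25, and the chemerin receptor Cmklr1 (-0.93), whereas chemerin itself, Rarres2, did not pass (0.02, standard error 0.098). With library totals no gene of these 3 lists was called in either direction.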

How the data were processed

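Cells sorted for CD90.2 from injured retinas of mice injected with AAV2-GFP or AAV2-Ezh2-Y726D were profiled by RNA-Seq (PicoPure RNA isolation, TruSeq Stranded Total RNA kit). The authors deposited raw read counts per gene, without normalization, and the submitters' processing notes name STAR 2.7.0d and GRCm38. The counting tool, annotation and use of strand are not given in the sources used here. All 6 columns were assigned to samples by name.

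The counts were tested with edgeR 4.0.16 in R 4.3.3 by its quasi-likelihood test with TMM factors, the filterByExpr filter (10 counts, total of 15) and Benjamini-Hochberg adjustment over 18138 genes. DEGs passed both an adjusted P of 0.05 and a 1.5-fold change. Standard errors were obtained from the log2 fold change and the F statistic as log2FC/√F. TMM factors ran from 0.647 to 1.31. Values under about 3 counts per library (0.102 to 0.498 CPM) are not distinguished from 0. Intervals cover 95%. With 3 libraries against 3, calls rest on variances moderated across genes by limma 3.58.1.

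Coordinates, exon lengths and overlaps came from GENCODE vM21 (GRCm38), and promoters from RefSeq (GRCm38.p6). Every member is accounted for, and the 3 genes of lowest adjusted P were named in each pathway list, together with Cx3cr1. The members, lists and tests were chosen with earlier results of these data known. Alternatives were other scalings, DESeq2 1.42.0, other filters and fold thresholds, thinned counts, a replicate block and libraries left out. The procedure was tested on simulated data. Some items are not reported here.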

Additional observations from a re-analysis of the deposited data

How the results depend on the processing

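Of the 21 members called, 16 were called in every fit other than that with library totals, and Ccl12, Ccl9, Xcl1, Cxcl13 and Ccl22 lost their call in at least 1. The members counted as DEGs were 10, with 1 for library totals, 21 with no fold threshold, 4 at a fold change over 2 and 6 to 11 when single libraries were left out, with 6 without Ezh2-Y726D replicate 1. With library totals 1 member was lower and 0 higher. With no filter on counts, 19 members were lower, 4 were higher and 12 were DEGs. When single libraries were left out, 16 to 17 members were lower and 2 to 4 higher. With DESeq2, 15 of the 18 lower calls and all 3 higher calls were kept. Among the pathway lists, library totals left 0 lower and 0 higher genes of chemokine receptor signalling, 0 lower genes of NF-kappaB and 0 lower and 0 higher genes of the wider chemokine family. Thinning each library to the shallowest left 3 lower and 0 higher genes of that family, and its 1 higher gene, Ccl27a, was also lost with DESeq2, without both GFP replicates 2 and 3, a choice made after seeing the data (0), and without GFP replicate 3 or Ezh2-Y726D replicate 2, with a range of 0 to 1 when single libraries were left out.

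With library totals the log2 fold changes of Ccl2 (0.49), Cxcl9 (0.029), Cxcl10 (0.10), Cxcl16 (0.18), Cxcr6 (0.00559), Ccrl2 (0.0603) and Ackr3 (0.35) turned positive, none of them called. Ccl2, not called, was also positive with DESeq2 (0.0101), with the replicate block (0.0753) and after thinning (0.0542), and ran from -0.20 to 0.10 when single libraries were left out. Ccl28 was -0.00559 with the replicate block and ran from -0.15 to 0.25, Cxcl12 was -0.0035 with library totals without the rRNA gene and -0.0832 after thinning and ran from -0.0552 to 0.0573, Ackr1 ran from -0.0164 to 0.12, and Ackr3 was 0.0064 without both GFP replicates 2 and 3 and ran from -0.23 to 0.0413, where these ranges are over single libraries left out. The cause was not tested.

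The deviations of same-numbered samples from their group means had correlations of 0.072, 0.034 and 0.024 across genes. Each sample correlated best with its own number, which is a hint from the data. All values lie under 0.1, too small to decide whether the samples were paired. A replicate block kept 18 lower members, 3 higher members and 10 DEGs and changed no call of a member, and it moved the higher genes of chemokine receptor signalling from 5 to 6. For members under 10 counts, low depth and low expression cannot be told apart in GFP replicates 2 and 3, the shallowest libraries.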
